A study of Mus musculus with 10 samples.

Results

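The fast skeletal muscle contractile genes described here are 10 genes whose proteins build or serve the contractile apparatus of fast-twitch fibres. They are the myosin heavy chains Myh1, Myh2 and Myh4, the regulatory light chain Mylpf, the troponins Tnnt3, Tnni2 and Tnnc2, the Z-disc protein Actn3, and the calcium-binding proteins Pvalb and Casq1. All 10 were measured, by 12 of the 22393 array features, and they stand among 16504 genes that had a named feature. They were chosen on the measured wall ratios themselves, so their values are given as a description and carry no test. The spread across hearts and between arrays is given in its place.

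The study compared the lateral and the septal wall of the mouse left ventricle within a heart. Hearts 1, 3, 4 and 5 were the 4 dyssynchronous hearts, in which the walls do not contract together, and the study's design ties this state to an implanted pacemaker. The comparison group was 1 control pool, made by combining RNA of several synchronous mice, so it has no replicate and shows no spread between animals. No source used here gives strain, age or sex. Both walls of a heart were hybridised to the same array in different dyes, and a second array carried the same RNA pair with the dyes exchanged. The 10 arrays therefore hold 1 value per heart, and their number limits the precision. Only ratios between walls were at hand, so neither the level of a gene nor the presence of ventricular muscle markers could be checked.

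Each value is the lateral over septal ratio on a log2 scale, as the mean of both arrays of a heart, and a negative value is higher on the septal side. The direction and the log base are likely rather than stated in the labels. They rest on the dye labels and on the usual output of the scanner software named in the submitters' processing notes. After turning, both arrays of a heart were correlated over the 16504 genes. The correlation was -0.30 in heart 1, -0.35 in heart 3, -0.28 in heart 4 and -0.17 in heart 5, and -0.30 in the pool. On this reading more of the variation over these genes followed the dye than the wall. If the red channel had been the denominator, septal and lateral would be exchanged throughout.

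Contraction of a striated muscle fibre begins when calcium binds the troponin complex on the thin filament, which lets myosin heads of the thick filament pull. Skeletal fibres and heart muscle use different genes for most of these parts, and fast fibres carry the type II heavy chains with fast troponins. The adult mouse ventricle is known for alpha-myosin, encoded by Myh6, and for the cardiac troponins, while the genes described here are known mainly from skeletal muscle.

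The 3 heavy chain genes lie in 1 cluster on chromosome 11, and their start regions share a run of bases. RefSeq promoter windows (mouse build GRCm38.p6, 250 bases before to 50 bases after the annotated start) were found for 7 of the 10 genes. Those of the heavy chains are shown because their wall ratios in heart 5 were on the same side, and that of Mylpf because it had the next lowest ratio after Myh4. Capitals mark a 20-base run shared by the heavy chains and the TATAAA box; in Mylpf they mark the E-box, CANNTG, the site form bound by myogenic factors such as MyoD.
Myh1, chr11:67199852-67200151, + strand: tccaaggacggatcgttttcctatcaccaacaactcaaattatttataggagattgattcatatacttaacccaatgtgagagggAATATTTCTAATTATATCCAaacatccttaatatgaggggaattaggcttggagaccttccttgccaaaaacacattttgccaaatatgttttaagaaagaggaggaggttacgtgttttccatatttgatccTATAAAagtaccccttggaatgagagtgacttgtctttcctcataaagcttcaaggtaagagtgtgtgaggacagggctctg
Myh2, chr11:67170777-67171076, + strand: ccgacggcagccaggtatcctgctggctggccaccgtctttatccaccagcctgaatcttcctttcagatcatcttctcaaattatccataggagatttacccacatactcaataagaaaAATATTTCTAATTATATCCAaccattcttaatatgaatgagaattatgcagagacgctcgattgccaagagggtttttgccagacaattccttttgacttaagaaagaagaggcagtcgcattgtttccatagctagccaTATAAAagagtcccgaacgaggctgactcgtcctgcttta
Myh4, chr11:67237562-67237861, + strand: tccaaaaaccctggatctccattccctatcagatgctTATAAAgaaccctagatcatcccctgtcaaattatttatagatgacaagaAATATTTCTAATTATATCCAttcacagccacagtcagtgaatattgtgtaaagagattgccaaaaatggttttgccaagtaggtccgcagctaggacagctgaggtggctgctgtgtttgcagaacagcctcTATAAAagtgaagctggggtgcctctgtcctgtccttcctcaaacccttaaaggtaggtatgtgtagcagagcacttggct
Mylpf, chr7:127211358-127211657, + strand: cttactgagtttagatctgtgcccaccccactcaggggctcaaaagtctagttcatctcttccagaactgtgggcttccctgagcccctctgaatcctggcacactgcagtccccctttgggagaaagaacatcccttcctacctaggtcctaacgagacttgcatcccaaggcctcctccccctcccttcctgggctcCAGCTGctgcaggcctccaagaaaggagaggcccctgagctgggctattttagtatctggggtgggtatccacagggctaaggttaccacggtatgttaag

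The shared run began 165 bases upstream of the start in Myh1, 130 in Myh2 and 163 in Myh4. It was found in 3 of the 32851 mouse promoter windows searched (0.00913%), which are these 3. TATAAA, searched on the given strand, stood at -32 to -27 in Myh1, at -31 to -26 and again at -213 to -208 in Myh4, and at 10 to 15 in Myh2, with the annotated start counted as 0. It is found in 8.32% of all windows and in 3 of the 7 genes with a window. The E-box CANNTG, on both strands, is common, with 72.3% of all windows holding it against 5 of the 7 genes. In Mylpf it stood at -51 to -46. The MEF2 motif, on both strands, was in 3 of the 7 genes (Myh1, Myh4 and Pvalb) and in 3.19% of all windows. CATTCC was in 2 of the 7 and in 14.7% of windows, and the CArG motif in Myh4 alone and in 1.63% of windows. A motif found by its letters is a description of the window and not a site of binding.

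In heart 5 all 10 genes had a ratio below 0, that is, higher on the septal side. Their median was -1.11, against a median of 0 over all genes of that heart. In the other hearts the members' median was 0.23 (heart 1), 0.03 (heart 3) and -0.04 (heart 4), and in the control pool it was 0.04. Over the 4 hearts the median averaged -0.22 ± 0.60 (SD, n = 4), and without heart 5 it averaged 0.07 ± 0.14 (SD, n = 3). The mean over hearts thus rests on a single animal, and no gene of the 10 had the same sign in all 4 hearts.

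**Figure D1:**
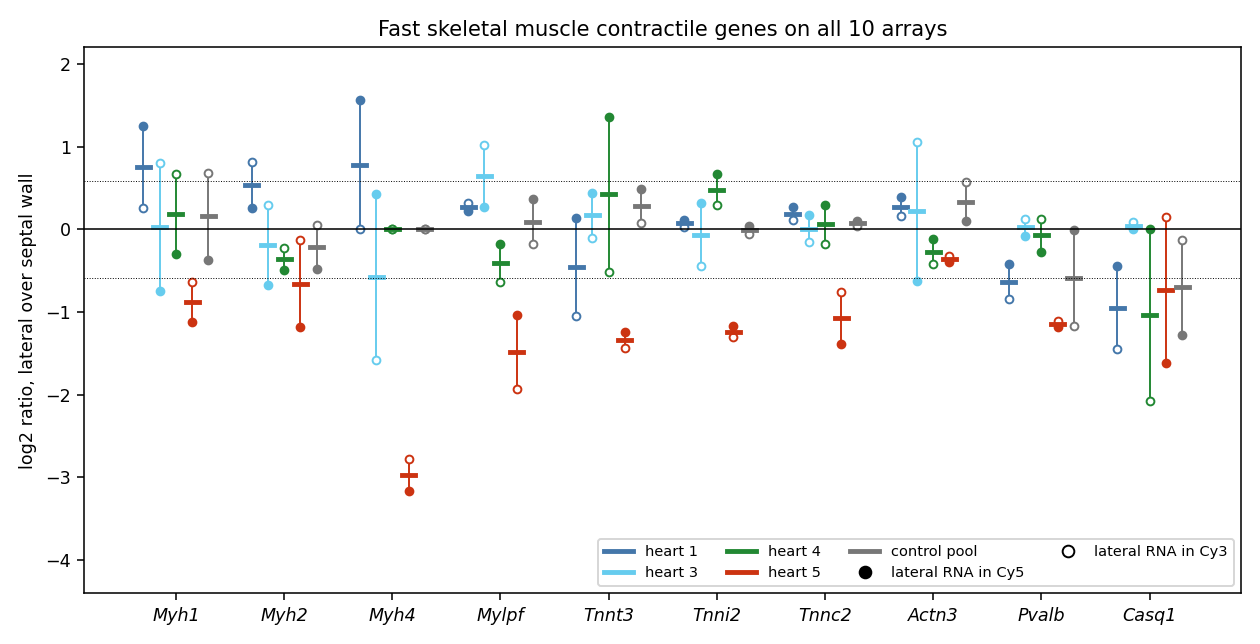
Log2 lateral over septal ratio of each of the 10 genes (vertical axis) in hearts 1, 3, 4 and 5 and in the control pool, with 1 point per array (filled for lateral RNA in Cy5, open for Cy3), a bar at the mean of both and dotted lines at 1.5-fold. In heart 5 both points lie below 0 for 9 of the 10 genes, all but Casq1, and Myh4 lies lowest, at -3.16 and -2.77.

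Beyond 1.5-fold toward the septal side lay 9 of the 10 genes in heart 5, where 4.21% of all genes did. The same count was 2 in heart 1 (2.96% of all genes), 0 in heart 3 (6.79%), 1 in heart 4 (6.45%) and 2 in the pool (3.35%). Toward the lateral side it was 2 in heart 1 (3.04% of all genes), 1 in heart 3 (5.24%), 0 in heart 4 (5.59%), 0 in heart 5 (6.96%) and 0 in the pool (3.76%). On both arrays of heart 5 the septal count was 7, against 0.976% of all genes. Beyond 2-fold it was 6, against 0.951% of all genes. Since the genes were chosen on these ratios, the counts describe heart 5 and are not support for a difference.

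Myh4, the type IIB heavy chain of the fastest fibres, had the lowest ratio of the 10. Its values were 0.78, -0.57, 0 and -2.96 in hearts 1, 3, 4 and 5, with the pool at 0. Heart 5 stood far from the rest, at -3.16 with lateral RNA in Cy5 and -2.77 with lateral RNA in Cy3. That is a 7.81-fold higher septal signal, and Myh4 ranked 6 from the septal end among all genes of that heart. On 5 of the 10 arrays Myh4 is listed at exactly 0: both of heart 4, both of the pool and that of heart 1 with lateral RNA in Cy3. The value of heart 1 is thus the mean of 1.56 and an exact 0. The sources used here do not say what an exact 0 means, so those values may not be measured ratios.

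Myh1, the type IIX heavy chain, was at 0.75, 0.03, 0.19 and -0.87 in hearts 1, 3, 4 and 5, with the pool at 0.16. The value of heart 5 is a mean of 2 features that went opposite ways, one at -2.17 and the other at 0.42. On the arrays of heart 5 the first feature read -2.61 and -1.73, and the second 0.37 and 0.47. The transcript that each feature reads was not stated. The heavy chain genes are close in sequence, and whether a probe of one also binds RNA of another was not tested.

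Myh2, the type IIA heavy chain of fast oxidative fibres, was at 0.53, -0.19, -0.36 and -0.66 in hearts 1, 3, 4 and 5, with the pool at -0.21. Its 2 features also differed in heart 5, at -1.26 and -0.06. The septal ratios of Myh1 and Myh2 in heart 5 thus came from 1 feature of each, with the other feature near or above 0. Without Myh1 and Myh2 the median of the remaining genes in heart 5 was -1.19.

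Mylpf encodes the regulatory light chain that binds the neck of fast myosins. Its ratios were 0.26, 0.65 and -0.40 in hearts 1, 3 and 4, -1.48 in heart 5 and 0.09 in the pool. Both arrays of heart 5 were below 0, at -1.04 and -1.93, a 2.80-fold higher septal signal on average. Heart 5 was the lowest of the 4 hearts for Mylpf, and the pool lay within the range of the hearts.

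The 3 fast troponins form 1 complex on the thin filament, and their ratios in heart 5 were close to each other. Tnnt3, which anchors the complex to tropomyosin, was at -0.45, 0.17, 0.42 and -1.34 in hearts 1, 3, 4 and 5, with the pool at 0.28. Tnni2, the inhibitory subunit, was at 0.08, -0.07, 0.48 and -1.24, with the pool at -0.0050. Tnnc2, the calcium sensor, was at 0.19, 0.01, 0.06 and -1.08, with the pool at 0.07.

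In heart 5 the septal signal of these subunits was 2.53-fold (Tnnt3), 2.36-fold (Tnni2) and 2.11-fold (Tnnc2) higher than the lateral one. Tnni2 gave nearly the same value in both dye orientations, -1.17 and -1.30, and so did Tnnt3, at -1.24 and -1.44. Tnnc2 read -1.39 with lateral RNA in Cy5 and -0.76 with lateral RNA in Cy3. None of the 3 lay beyond 1.5-fold in hearts 1, 3 and 4 or in the pool, although single arrays of Tnnt3 reached 1.36 (heart 4) and -1.05 (heart 1). Of the 3, Tnnc2 was nearest to 0 in hearts 3 and 4, and Tnni2 in heart 1 and the pool.

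Actn3, the alpha-actinin of fast-fibre Z-discs, had the ratio nearest to 0 of the 10 in heart 5. It was at 0.28, 0.22, -0.27 and -0.36 in hearts 1, 3, 4 and 5, with the pool at 0.33. Its heart 5 arrays read -0.40 and -0.32, inside the 1.5-fold limit, and the arrays of heart 3 read 1.06 and -0.62, farther apart than the hearts are from each other.

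Pvalb encodes parvalbumin, a soluble calcium buffer that speeds relaxation of fast fibres. It was at -0.63, 0.03, -0.07 and -1.14 in hearts 1, 3, 4 and 5, with the pool at -0.59. Both heart 5 arrays were close, at -1.18 and -1.11, while the pool arrays were at -0.01 and -1.17. The septal value of the pool therefore came from 1 dye orientation.

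Casq1, the calcium-storing protein of the skeletal sarcoplasmic reticulum, was at -0.95, 0.05, -1.04 and -0.73 in hearts 1, 3, 4 and 5, with the pool at -0.70. It was the only member whose lowest heart was not heart 5. Its heart 5 arrays read -1.61 with lateral RNA in Cy5 and 0.15 with lateral RNA in Cy3, and heart 4 read 0, an exact 0, and -2.08. These gaps between arrays of the same RNA are larger than the differences between hearts.

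**Figure D2:**
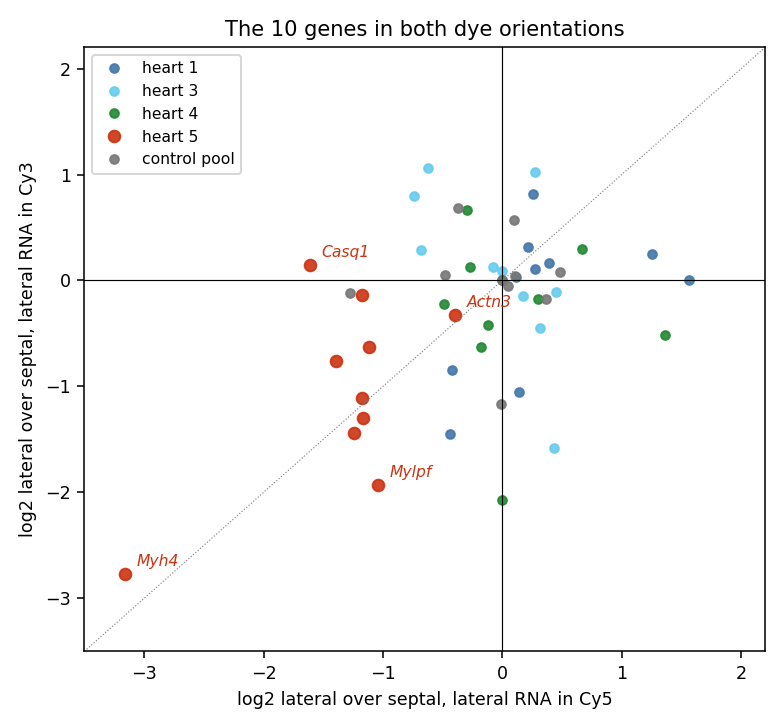
Log2 lateral over septal ratio of each gene with lateral RNA in Cy5 (horizontal axis) against the ratio with lateral RNA in Cy3 (vertical axis), 1 point per gene and heart or pool. The dotted line marks equal values. In heart 5, 9 of the 10 genes fall below 0 on both axes, and Casq1, at -1.61 and 0.15, is the exception.

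Both dye orientations of heart 5 gave a median below 0, at -1.18 with lateral RNA in Cy5 and -0.94 with lateral RNA in Cy3. Of the 10 genes, 9 were below 0 on both arrays there. In heart 1 this held for 2 genes, in heart 3 for 0, in heart 4 for 3 and in the pool for 2. For 9 genes heart 5 had the lowest ratio of all hearts, and for all 10 it lay below the pool. The pool lay within the range of the hearts for 9 genes and above it for Actn3. Shares over all genes were not computed for these counts. The genes were chosen on these ratios, so the counts are a description only.

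Across the whole table, the test of the walls in the 4 hearts called no gene. limma on averaged arrays put 0 of 16504 genes (0%) past an adjusted p of 0.05, while 934 had an unadjusted p below 0.05. For the hearts against the pool it also called 0 (0%), with 783 below an unadjusted p of 0.05, and here the lone pool is assumed to vary like 1 heart. A second limma fit, on single arrays, with terms for the dye and a random block for the heart, called 20 genes between walls, 14 of them septal (0.0848%), and 3 against the pool. The estimated correlation within a heart was -0.049, so that fit took both arrays of the same RNA nearly as separate replicates, and its p-values may be too small. None of the 10 members was called by any of these fits.

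For 9 of the 10 fast genes, all but Pvalb, a close relative that serves the same part in heart muscle was measured on the same arrays. In heart 5 the cardiac troponins were near 0, with Tnnt2 at -0.06, Tnni3 at 0.01 and Tnnc1 at 0.08. The ventricular light chain Myl2 was at -0.19, the cardiac calsequestrin Casq2 at -0.14, the cardiac alpha-actinin Actn2 at -0.32 and alpha-myosin Myh6 at -0.26. Fast minus cardiac, the difference was -1.28 for troponin T, -1.25 for troponin I, -1.15 for troponin C and -1.29 for the light chain. For Actn3 against Actn2 the difference was only -0.04. Against Myh6, Myh4 gave -2.70, Myh1 -0.61 and Myh2 -0.40. Casq1 against Casq2 gave -0.59 in heart 5. That pair gave -0.99 in heart 1, 0.20 in heart 3, -1.08 in heart 4 and -0.68 in the pool.

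Among the 16 heart muscle genes listed, 1 lay beyond 1.5-fold septal in heart 5, where 4.21% of all genes did. This was Myh7, the slow beta-myosin of heart and slow skeletal fibres, at -2.74. Myh7 was also on the septal side in hearts 1, 3 and 4, at -0.81, -1.10 and -1.18, and in the pool, at -0.82. The 10 fast genes had medians between -0.04 and 0.23 in those 3 hearts.

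**Figure D3:**
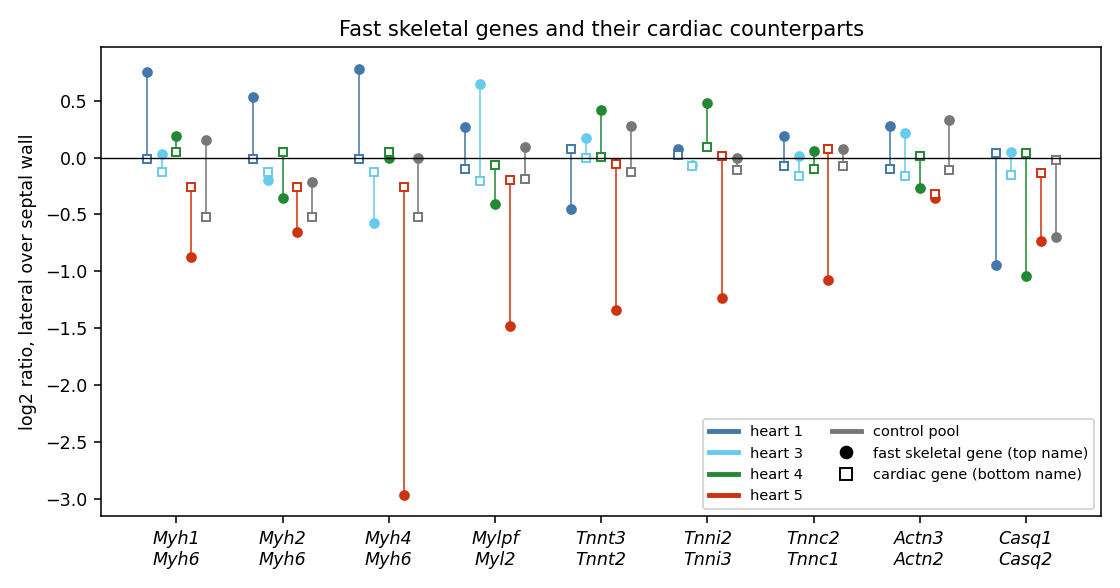
Log2 lateral over septal ratio (vertical axis, mean of both arrays) of 9 fast skeletal genes, without Pvalb (filled circles), and of the heart muscle gene that serves the same part (open squares), joined by a line, in hearts 1, 3, 4 and 5 and the pool. In heart 5 the fast troponins lie between -1.34 and -1.08 and the cardiac troponins between -0.06 and 0.08, while Actn3 at -0.36 and Actn2 at -0.32 lie side by side.

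On chromosome 11 the sarcomeric heavy chain genes stand in the order Myh3, Myh2, Myh1, Myh4, Myh8, Myh13. In heart 5 they read -0.04, -0.66, -0.87, -2.96, 0.00 and -0.18 in that order. The outer genes, the embryonic Myh3, the perinatal Myh8 and the extraocular Myh13, were thus near 0, and the adult fast genes between them were on the septal side. In heart 1 the same adult genes were on the lateral side, at 0.53, 0.75 and 0.78, the last of which averages 1.56 and an exact 0.

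**Figure D4:**
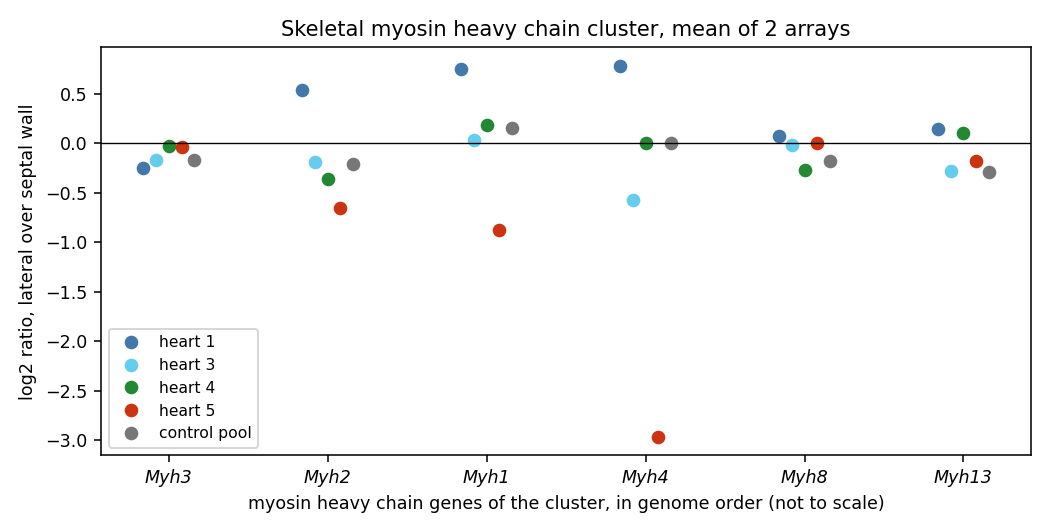
Log2 lateral over septal ratio of the 6 heavy chain genes in their order on chromosome 11 (not to scale), with 1 point for each of hearts 1, 3, 4 and 5 and the control pool, the mean of both arrays. The 3 adult fast genes, Myh2, Myh1 and Myh4, are below 0 in heart 5 and above 0 in heart 1, and the outer genes stay between -0.29 and 0.15.

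The other members lie on 5 further chromosomes, and their measured neighbours stayed within 1.5-fold in heart 5. Beside Mylpf on chromosome 7, Tbc1d10b, a Rab GTPase-activating protein, was at -0.04 and the septin gene Septin1 at 0.09. Beside Tnni2 and Tnnt3 on the same chromosome, the synaptotagmin gene Syt8 was at 0, the leukocyte protein gene Lsp1 at 0.46 and the mitochondrial ribosomal gene Mrpl23 at -0.02. Syt8 was at exactly 0 in hearts 1 and 4 and the pool too, so its value may not be a measured ratio. Beside Tnnc2, Ube2c was at 0.32 and Snx21 at 0.12. Beside Actn3, Ctsf was at 0.06 and Zdhhc24 at -0.11, beside Pvalb, Ift27 was at 0.15 and Ncf4 at 0.49, and beside Casq1, Atp1a4 was at -0.25.

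Other genes known from skeletal muscle had a median near 0 in heart 5. In 5 lists of fast filament, calcium release, slow-fibre, myogenic and nerve-muscle junction genes, 54 of 62 genes were measured. Their median in heart 5 was -0.03, and they ranged from -1.02 (Mybpc2) to 0.42 (Sypl2). Beyond 1.5-fold septal were 8 of them (14.8%, against 4.21% of all genes), and 0 were beyond it laterally (6.96% of all genes). These 8 were Mybpc2, Myot, Cacng6, Tnni1, Megf10, Chrna1, Colq and Lrp4. Mybpc2, Myot and Chrna1 were beyond the limit on both arrays of heart 5, and the others on a single array only. The septal count was 0 of 54 in heart 1 (2.96% of all genes), 5 in heart 3 (9.26%, against 6.79%), 9 in heart 4 (16.7%, against 6.45%) and 4 in the pool (7.41%, against 3.35%). The lists were chosen with earlier results of these data known, so these counts are a description.

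Among 15 further filament genes of fast fibres the median in heart 5 was 0. Mybpc2, the fast myosin-binding protein C, was at -0.52, -0.71, -1.11 and -1.02 in hearts 1, 3, 4 and 5, with the pool at -0.42. Myot, the Z-disc protein myotilin, was at -0.39, -0.55, -0.74 and -0.67, with the pool at -0.24. Both were on the septal side in all 4 hearts and the pool, and these 2 of the 15 genes passed in the second limma fit (adjusted p 0.0242 for Mybpc2 and 0.0134 for Myot). On averaged arrays neither did (adjusted p 0.732 for both).

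Outside the rule for named genes, and chosen after their values were seen, several textbook partners of the members were near 0 in heart 5. Myl1, the essential light chain that pairs with Mylpf on fast myosin, was at -0.20. Acta1, skeletal alpha-actin, was at 0.03, Atp2a1, the fast-fibre calcium pump, at 0.05, and Ryr1, the skeletal calcium release channel, at -0.14. Cacna1s, the voltage sensor of skeletal fibres, was at 0.15, and Ckm, muscle creatine kinase, at 0.19. None of these 6 lay beyond 1.5-fold, where 4.21% of all genes did on the septal side and 6.96% on the lateral side. Because they were chosen with their values known, that count is a description and no result. Other genes of the skeletal muscle lists were farther to the septal side in heart 5. Among them were the giant filament protein gene Neb at -0.57, the calcium channel subunit Cacng6 at -0.61 and the slow troponin Tnni1 at -0.60. The junction genes Colq and Lrp4 were at -0.96 and -0.62. These 2 means came mainly from the array with lateral RNA in Cy3 (-1.80 and -1.17), against -0.12 and -0.08 with lateral RNA in Cy5. Some of the first 6, such as Acta1 and Ckm, are also made by heart muscle.

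The calcium release list (12 genes) had a median of 0.01 in heart 5, the slow-fibre list (5 genes) -0.04 and the myogenic regulators (12 genes) -0.04. Of the regulators, Myod1 was at -0.26 in heart 5, Pax3 at -0.05 and Six4 at 0.05, while Megf10, a receptor of muscle precursor cells, was at -0.64. The junction list (10 genes) had a median of -0.13, with the acetylcholine receptor subunit Chrna1 at -0.99. In hearts 1, 3 and 4 Chrna1 was at -0.27, 0.78 and -1.39, and in the pool at -0.59. Glycolytic and other energy genes of fast fibres (15 genes) had a median of 0.04, and 0 of them lay beyond 1.5-fold. Of all genes in heart 5, 4.21% lay beyond it on the septal side and 6.96% on the lateral side. Ckm, which is also made by heart muscle, is in the energy list. The part of heart muscle in the ratios of these lists was not tested. Developmental and specialised myosin genes (5 genes) had a median of -0.04, with the atrial and embryonic light chain Myl4 at -4.17.

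**Figure D5:**
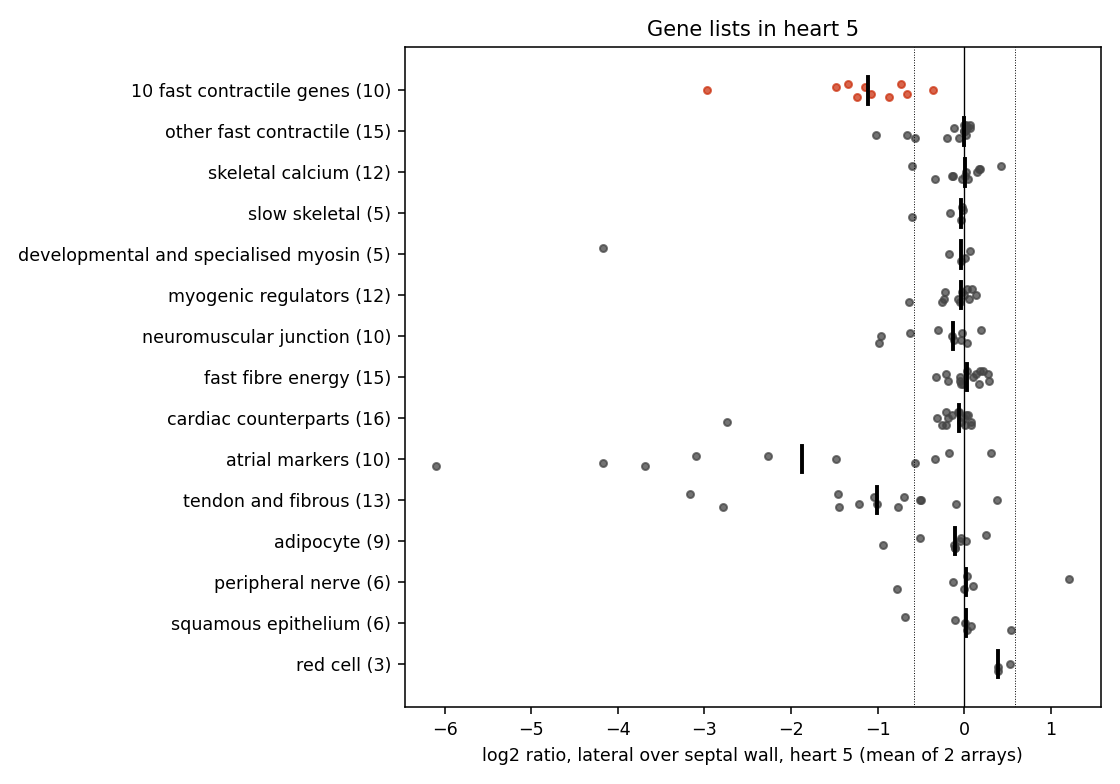
Log2 lateral over septal ratios in heart 5 of the 10 members and of the other gene lists, 1 point per gene, with a bar at the median of each list and dotted lines at 1.5-fold. The members' median is -1.11, the skeletal muscle lists have medians between -0.13 and 0.04, and the atrial and tendon lists have medians of -1.88 and -1.01.

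Markers of neighbouring tissues also differed between the walls of heart 5. Of 10 atrial markers 6 lay beyond 1.5-fold septal there (4.21% of all genes did), with a median of -1.88 and a range of -6.10 to 0.31. The atrial light chain Myl7 was at -6.10, Mybphl, a myosin-binding protein of the atria, at -3.10, and the natriuretic peptide gene Nppa at -2.27. Inside the limit were Fgf12 at -0.56, Sln at -0.34, Bmp10 at -0.17 and Upk3b, on the lateral side, at 0.31. Of 13 tendon and fibrous tissue markers 9 lay beyond the limit, against the same 4.21%, with a median of -1.01 and a range of -3.17 to 0.38. Among them Ecrg4, a secreted peptide precursor, was at -3.17, the cartilage and tendon matrix gene Comp at -2.79, the collagen-binding Fmod at -1.46, the secreted Angptl7 at -1.44 and Kera, keratocan, at -1.21. In the second limma fit 2 of the atrial markers (Myl7 and Dkk3) and 3 of the fibrous ones (Cilp, Ecrg4 and Angptl7) passed, all on the septal side, where 0.0848% of all genes did. On averaged arrays 0 genes of either list passed. Both lists were chosen with earlier results of these data known, so their counts are a description and not support for a difference. The p-values of the second fit may also be too small.

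The medians of these lists were below 0 in the other hearts too. The atrial median was -0.87, -0.49 and -0.40 in hearts 1, 3 and 4 and 0.01 in the pool. The tendon and fibrous median was -0.77, -0.29 and -0.88, with the pool at -0.05. Myl7 was at -5.18 in heart 1, where the members' median was 0.23. Not every atrial marker was septal in each heart: in hearts 3 and 4 Nppa was at 0.20 and -0.08, and Mybphl at 0.22 and -0.42. Markers of fat (9 genes), nerve (6 genes), squamous epithelium (6 genes) and red cells (3 genes) had medians of -0.10, 0.02, 0.02 and 0.39 in heart 5. The part of other tissues in the members' ratios was not tested. In samples of whole wall, fewer cells of a type and less RNA per cell cannot be told apart.

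Over the 10 arrays the members did not all vary alike. The correlation of a gene with the median of the other 9 ran from 0.14 (Casq1) to 0.92 (Tnnc2), with Myh4 at 0.84, Mylpf at 0.79 and Tnni2 at 0.75. The arrays come in pairs that share RNA, so these values describe 10 points of 5 RNA pairs. The members were chosen on these same ratios, and their correlations were not computed without heart 5. They are a description only. Outside the members, 243 genes lay beyond 2-fold in 1 direction on both arrays of a heart or of the pool, and the 10 with the highest correlation with the members' median were taken from them. Without the arrays of heart 5, over 8 arrays, most of these correlations were lost.

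Myh7 had the highest, 0.95 over 10 arrays and 0.30 without heart 5. Wwc1, an adaptor of the Hippo pathway also known as KIBRA, was at 0.90 and 0.58, and the lipid transfer gene Stard10 at 0.89 and -0.21. The odorant receptor gene Olfr632 was at 0.88 and 0.27, and Ccn2, the matricellular connective tissue growth factor, at 0.84 and -0.65. Khdc3 was at 0.82 and 0.40, Ccdc13 at 0.82 and -0.18, Uts2, the urotensin peptide gene, at 0.79 and -0.63, and Myl4 at 0.79 and -0.60. Lhfpl3 alone was higher without heart 5, at 0.73 and 0.89. In heart 5 these 10 genes lay between -4.17 and -1.10. Uts2 is listed at exactly 0 on 7 arrays, Olfr632 on 4, Wwc1 on 3 and Lhfpl3 on 1.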

How the data were processed

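RNA of the lateral and septal left ventricular walls was labelled with Cy3 and Cy5 and compared on 10 arrays. The authors deposited 1 ratio per feature and array, taken here as log10 of Cy5 over Cy3. Neither the log base nor the direction is stated. Per the submitters' processing notes, the tool used was Agilent Feature Extraction 7.5. The dye normalization is not given in the sources used here, nor is the meaning of exact zeros (7.69% to 15.1% of features per array). The deposited values had a median of 0 on every array, and channel intensities were not used here.

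Values were multiplied by 3.32 to log2 and turned by the dye labels to lateral over septal. Of 22393 features, 18218 had 1 gene symbol in the platform annotation, 16 had several and 4159 had none, and the latter 2 kinds were left out. Features of a gene were averaged (16504 genes), then the 2 arrays of a heart, which share RNA and count as 1 replicate. Symbols were checked through 18175 Entrez numbers, with 0 differing.

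The 4 hearts and the pool were fitted with eBayes in limma 3.58.1, under R 4.3.3 and with statmod 1.5.0, with Benjamini-Hochberg adjustment over all genes, two-sided, at 0.05. The procedure was tested on simulated data. Per heart, genes beyond 1.5-fold on the mean of both arrays were counted with no test. The members and the 14 other gene lists were chosen with earlier results of these data known. Named genes are the members, up to 5 genes per list beyond 1.5-fold on both arrays of a heart or the pool, cardiac relatives, chromosomal neighbours and the 10 genes most correlated with the members' median. Alternatives covered dye orientation, centring, spread, zeros, features, turning, log base, fold limits, a dye term with the heart as a block, and each heart left out. Promoters came from RefSeq (GRCm38.p6), and gene order from RefSeq's GRCm38.p6 annotation.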

Additional observations from a re-analysis of the deposited data

Results flagged for a closer look

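In 54 sets of 4 hearts, 4 had a heart far from the others, where chance gives about 1 in 20, or 2.7. The 10 fast genes are among these sets and were chosen on the same ratios, so the place of Tnnc2 is a description and no test. Other sets are genes named for lying beyond a fold limit on both arrays of a heart or the pool, Six4 among them. The rate of 1 in 20 therefore need not hold for these sets, and the count is a description. Tnnc2, the fast troponin C, was at -1.08 in heart 5, with the other hearts at 0.01 to 0.19 and the pool at 0.07. Six4, a homeobox regulator of muscle development, was at -1.26 in heart 4, with the other hearts at 0.03 to 0.06 and the pool at -0.21. The median of the fat cell markers was -0.10 in heart 5, with the other hearts at 0.01 to 0.03. The median of the squamous epithelium markers was -0.24 in heart 4, with the other hearts at -0.0049 to 0.02.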

How the results depend on the processing

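The members' median in heart 5 stayed between -1.19 and -0.94 with either dye orientation alone, centred or scaled arrays, zeros left out, single features, the mean in place of the median, and without Myh1 and Myh2 (chosen after seeing the data). It was -0.33 with the values read as log2, and -0.12 with the values taken as already turned, where 7 of the 10 members were below 0 and 1 lay beyond 1.5-fold septal. Under that setting the ratio in heart 5 reversed for Mylpf (0.44), Tnnt3 (0.098), Tnni2 (0.066), Mybpc2 (0.048), Myot (0.032), Chrna1 (0.29), Myl7 (0.017), Dkk3 (0.066), Mybphl (0.79), Fmod (0.57), Angptl7 (0.26), Kera (0.32), Mbp (0.32), Wwc1 (0.42) and Uts2 (0.54). Casq1 reversed to 0.15 with lateral RNA in Cy3 alone. The septal count of members fell to 0 in heart 1 and in the pool beyond 2-fold, and to 0 in heart 1, heart 4 and the pool on both arrays. With a hearts' mean of -0.22, leaving out a heart gave -0.37 to 0.07, the highest without heart 5. The limma counts were 20 and 3 with the dye term and heart block, whose estimated correlation was -0.049, and 0 to 0 with each heart left out. Values taken as already turned gave 0 calls between walls, with 3140 genes at an unadjusted p under 0.05. The cause of these changes was not tested beyond what each setting does by construction. The walls are paired within a heart by the ratio itself. For the hearts against the pool no paired analysis was possible because the pool is 1 sample.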

Other observations

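Genes of red cells stood on the lateral side in heart 5, chosen here after their values were seen. The alpha-globin gene Hba-a1 was at 0.39, the beta-globin gene Hbb-b2 at 0.39 and Alas2, the haem synthesis enzyme of red cell precursors, at 0.52. In hearts 1, 3 and 4 these 3 genes lay between -0.34 and 0.05, and in the control pool between 0.13 and 0.29. In the pool, Trp63, a regulator of squamous epithelium, was at 1.44 and the basal keratin gene Krt14 at 1.06, while in the 4 hearts they lay between -0.42 and 0.27. Trp63 was beyond 1.5-fold on both arrays of the pool, and Krt14 was not. The other 4 measured genes of that list were at -0.28 (Krt4), -0.03 (Krt13), -0.0014 (Krt5) and -0.05 (Krt15) in the pool, and the list's median there was -0.02. None of these genes passed limma on averaged arrays.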
